A study of Rattus norvegicus with 108 samples.

Results

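The 6 genes Pdgfra, Cspg4, Gpr17, Vcan, C1ql1 and Ptprz1, which mark oligodendrocyte precursor cells (OPC) in rodent brain, were followed through single-cell RNA profiles of the rat dentate gyrus. They were taken by symbol, and all 6 of 6 members were found among the 19127 genes of the count tables. The study asked how fluoxetine, a serotonin reuptake inhibitor used as an antidepressant, changes gene expression in single cells of this region. Male Long-Evans rats of 2 months received fluoxetine at 18 mg/kg (FT) or water (Sham) for 6 weeks, and the dorsal (dorDG) and ventral (venDG) dentate gyrus were punched from their brains. The 4 groups were dorDG FT (570 cells, 4 replicates), dorDG Sham (719 cells, 5 replicates), venDG FT (1249 cells, 5 replicates) and venDG Sham (809 cells, 5 replicates). Each replicate was a pool of 3 animals by the study's methods, and dorDG FT has no replicate 3. The labels speak of nuclei while the methods describe both whole cells and nuclei, and neither says which of the 27 reactions held which. Of the barcodes that name cells, 9 were found in more than 1 reaction.

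Depth ranged from 220162 to 1523537 unique molecular identifiers (UMIs, each counting 1 captured RNA molecule) per replicate, with a median per cell of 2282 to 6001. Cells with under 2% of their UMIs in cytosolic ribosomal protein genes made up 14.5% to 42.1% of a dorDG FT replicate, 31.9% to 72.0% of a dorDG Sham replicate, 16.9% to 50.3% of a venDG FT replicate and 18.9% to 61.9% of a venDG Sham replicate. In the dorsal region this share ran higher in Sham, with overlapping replicates, and its part in each result below was not tested except where values from the ribosome-rich cells alone are given. Levels are UMIs of a gene per 10000 UMIs of all genes. Because genes are captured with unequal efficiency, levels are compared within a gene, across cells and groups, and not between genes.

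OPC are dividing glial cells of the adult brain that give rise to myelinating oligodendrocytes. Growth signals through the PDGF alpha receptor keep them dividing, and as they commit to differentiation they lose the receptor and the NG2 proteoglycan and pass through a short stage marked by Gpr17. The members fall into 3 roles. Pdgfra encodes the receptor for platelet-derived growth factor AA, Gpr17 a G protein-coupled receptor, and Ptprz1 a receptor-type tyrosine phosphatase that binds pleiotrophin and is also made by astroglia. Cspg4 encodes NG2, a membrane chondroitin sulfate proteoglycan that pericytes of blood vessels carry too, and Vcan encodes versican, a hyaluronan-binding proteoglycan of the extracellular matrix. C1ql1 encodes a secreted protein of the C1q family.

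The start regions of Pdgfra and Vcan are shown because these members were, with C1ql1, the ones whose pattern over cell types was most alike. Each run below is the 250 bases before the gene's start in the RefSeq annotation of the rat assembly GRCr8, 5′ to 3′ on the gene's strand, with CpG pairs in capitals.
Pdgfra, chr14:33408517-33408766, minus strand: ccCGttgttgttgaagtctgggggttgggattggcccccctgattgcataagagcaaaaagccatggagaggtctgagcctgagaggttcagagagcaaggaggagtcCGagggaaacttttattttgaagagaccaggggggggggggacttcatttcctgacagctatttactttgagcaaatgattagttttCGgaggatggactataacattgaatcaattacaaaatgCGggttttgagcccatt
Vcan, chr2:22595956-22596205, minus strand: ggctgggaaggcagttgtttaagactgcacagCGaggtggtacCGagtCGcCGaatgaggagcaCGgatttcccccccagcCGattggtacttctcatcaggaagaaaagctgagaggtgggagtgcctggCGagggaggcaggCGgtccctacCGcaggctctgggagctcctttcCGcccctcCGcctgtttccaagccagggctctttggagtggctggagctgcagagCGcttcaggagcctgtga
The Pdgfra run held 4 CpG pairs and 47.2% G and C, and the Vcan run held 12 and 61.6%, against medians of 5 and 51.2% over 33469 rat promoters. Promoters were found for 4 of the 6 members (Pdgfra, Cspg4, Gpr17 and Vcan), with 5 entries between them. ACAAAG and ACAAT, core letters of SOX factor motifs, and CAGCTG and CATCTG, forms of the E-box, were searched on both strands of the 250 bases before and the 50 after each start, and no motif contains another. None of the 5 entries held any of the 4 motifs, which 18.8%, 33.7%, 15.1% and 16.6% of all promoters hold. No match says only that these letters are not in this window.

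The dorDG cells carry the cell type names of the authors (12 types), and 87 of 1289 cells were named OPC. Their label was checked with 11 OPC markers that include none of the 6 members, such as Pcdh15, Megf11 and Neu4. All 9 of those in the tables were detected in at least 10% of OPC cells, and their summed level was 26.0 UMIs per 10000 in OPC against 8.94 in AstroSub1, an astrocyte type, 3.72 in Oligodend1 and 3.98 in Oligodend2. The highest of the other types were InhibNeuron (10.6), ExcitNeuron (9.76) and Granule (9.52). Neu4 was at 0 in AstroSub1. Oligodendrocyte markers summed to 83.9 in OPC and 70.3 in AstroSub1 against 549 in Oligodend1, with Mbp counted in 100% of OPC and of AstroSub1 cells, and the part of such RNA in the members' levels was not tested. The authors clustered these cells on genes that may include the members, so the levels by type that follow are a description with no test. OPC cells held 8.20% of all dorDG UMIs, but 78.3% of the Pdgfra UMIs, 80.6% of those of C1ql1, 62.3% of those of Vcan and 53.2% of those of Ptprz1. For Cspg4 the share was 39.0%, and for Gpr17 it was 16.7%, or 2 of 12 UMIs (2 in Granule and 3 in InhibNeuron cells among the rest).

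Among the receptors, Pdgfra was close to restricted to OPC. Its level there was 4.83 ± 2.21 (SD, n = 7 replicates with at least 5 OPC cells), from 1.16 to 7.31, and 69 of 87 cells (79.3%, 95% Clopper-Pearson interval 69.3 to 87.3) had at least 1 UMI. In the other 11 types the mean was at most 0.413, a value in BergGlia that rests on 1 UMI, and the range of BergGlia replicates (0 to 1.65) overlapped the lowest OPC replicate. In Microglia1, which should lack the gene, 4.67% of cells had a UMI at a median depth of 6669 UMIs against 6104 in OPC, and the shares in Oligodend1 (2.34%), Oligodend2 (6.32%) and AstroSub1 (7.27%, or 8 cells) were of that order. With every cell thinned to 1000 UMIs, 36.5% of OPC cells and 4.08% of AstroSub1 cells had a Pdgfra UMI. Intervals here and below cover counting error only.

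Gpr17 was near the limit of detection in every type. Only 32 UMIs of it were counted in all 3347 cells, its OPC level was 0.0353 ± 0.0933, and 2 of 87 OPC cells (2.30%, interval 0.280 to 8.06) had a UMI, both in dorDG FT replicate 1. Granule cells (0.0589 ± 0.117) and Mossy cells (0.0480 ± 0.0939) were not lower than OPC beyond their spread. It was counted in 0 of 171 Oligodend1 cells, which allows a share of cells with a UMI of up to 1.75% (3 counts over the cells) and limits detection, not expression. At this depth no type could be told from another by Gpr17.

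Ptprz1 was the member with the widest reach. Its OPC level was 20.9 ± 5.67 (16.0 to 32.2 over 7 replicates) and 93.1% of OPC cells had a UMI. AstroSub1 came next with 9.32 ± 2.77 (4.75 to 13.3 over 8 replicates) and 81.8% of cells, so the replicates of these types did not overlap. BergGlia followed with 3.53 ± 2.02, whose range (1.65 to 5.51) overlapped that of AstroSub1, then InhibNeuron with 2.22 ± 0.847 and 67.3% of cells (123 of these 147 cells fell in Granule-like clusters when both regions were clustered together). The oligodendrocyte types stood at 0.686 ± 0.419 (Oligodend1) and 0.679 ± 0.284 (Oligodend2), within the spread of Microglia1 at 0.512 ± 0.422. Thinned to 1000 UMIs, 77.6% of OPC, 62.2% of AstroSub1, 17.7% of InhibNeuron and 3.85% of Microglia1 cells had a Ptprz1 UMI, so the order of these types was kept at equal depth. Only 22 of the 43 BergGlia cells reached 1000 UMIs, and the place of BergGlia at equal depth is not given here.

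Of the proteoglycans, Vcan was highest in OPC and Cspg4 was shared with a type outside the glial lineage. Vcan stood at 3.55 ± 1.26 in OPC (1.93 to 4.98, 74.7% of cells) and at 0.606 ± 0.588 in AstroSub1 (0 to 1.63, 11.8% of cells), with no overlap of replicates. In Oligodend1 it was 0.328 ± 0.135, above 0 in each of the 9 replicates, and in Oligodend2 0.0742 ± 0.0535. Cspg4 was 1.91 ± 0.851 in OPC (0.421 to 3.05, 55.2% of cells) and 1.49 ± 0.5262 in the cells named Mossy (1.03 to 2.47, 51.4% of cells), with overlapping replicates. The order of OPC and Mossy for Cspg4 turned with the cells counted. Thinned to 1000 UMIs, the level was 1.65 in OPC (15.3% of cells) and 2.21 in Mossy (20.6% of cells), and over all replicates with at least 1 such cell the mean was 1.82 in OPC and 2.02 in Mossy.

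Mossy cells are excitatory neurons of the hilus, yet the cells under that name carried vessel genes. All 9 mural markers in the tables were detected in at least 10% of them, with a summed level of 35.2 UMIs per 10000 against 1.09 in OPC, and their endothelial marker sum was 45.4 against 2.71. When both regions were clustered together, 46 of the 72 cells fell in Endothelial-like and 24 in Mural-like clusters. Of the 72 Mossy cells, 10 had a Vcan UMI (13.9%), 2 a Gpr17 UMI and 0 a C1ql1 UMI. The 24 dorDG cells in Mural-like clusters had a pooled Cspg4 level of 4.24 UMIs per 10000 with 62.5% of cells, and 2 of them had a Vcan UMI and 0 a Gpr17 or C1ql1 UMI (a share of cells with a UMI of up to 12.5%). The venDG cells in Mural-like clusters held Cspg4 at 3.86 ± 1.95 over 6 replicates with 58.9% of cells, and Vcan, Gpr17 and C1ql1 UMIs in 0 of 56 cells (a share of up to 5.36%). Of the next types for Cspg4, Microglia2 (0.349 ± 0.376) and the oligodendrocyte types (0.229 ± 0.138 and 0.252 ± 0.159) could not be told apart by their spread.

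The secreted C1ql1 followed Pdgfra. Its level was 1.59 ± 0.715 in OPC (0.386 to 2.41, 50.6% of cells) and 0.0960 ± 0.218 in AstroSub1, where 2 of 110 cells had a UMI. It was counted in 0 of 171 Oligodend1 and 0 of 72 Mossy cells, which allow shares of up to 1.75% and 4.17%.

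**Figure D1:**
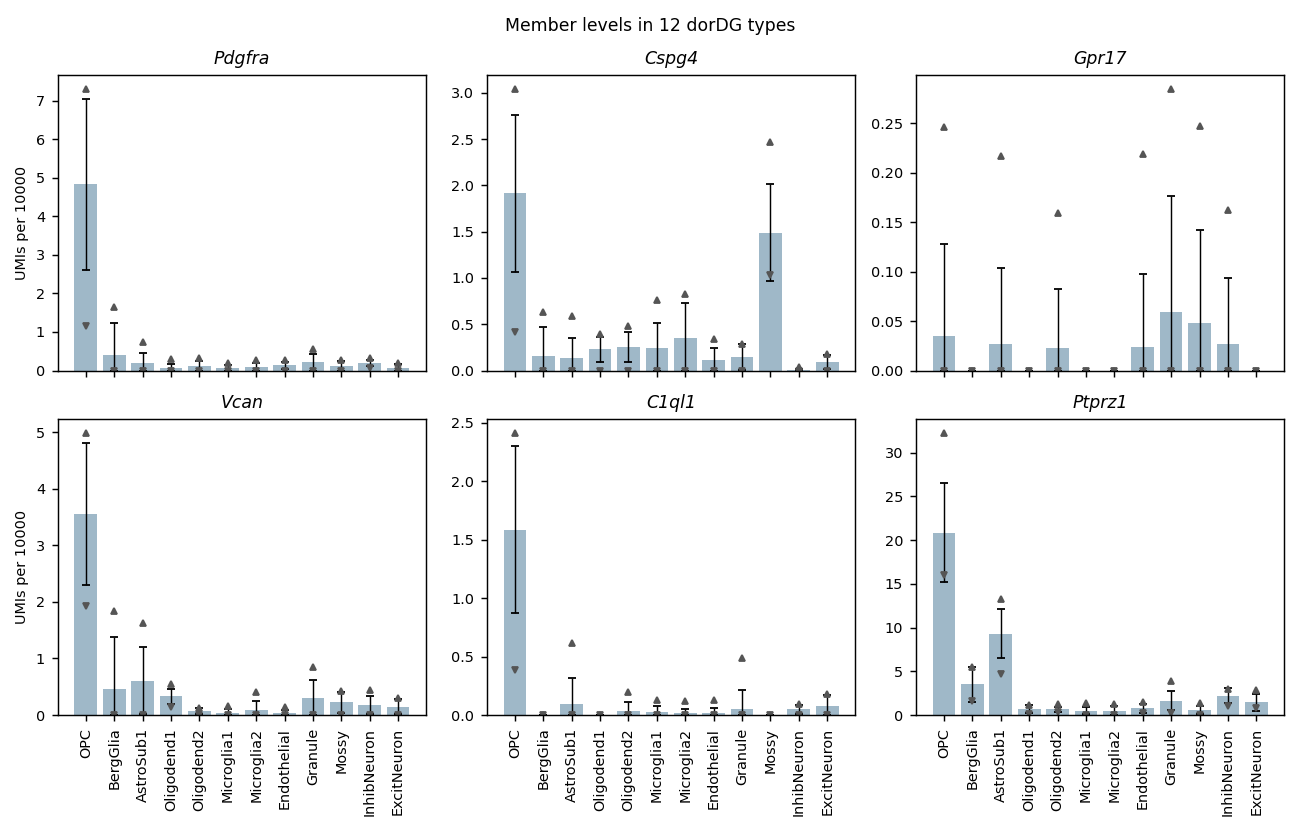
Level of each member (UMIs per 10000, linear axes that differ between panels) in the 12 dorDG cell types of the authors, with bars for the mean over the replicates that held 5 or more such cells, lines for ± 1 SD and triangles for the lowest and the highest replicate. OPC stands highest for Pdgfra, Vcan, C1ql1 and Ptprz1, AstroSub1 is second for Ptprz1, and Mossy comes close to OPC for Cspg4.

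The venDG cells come without type names and were clustered together with dorDG cells on genes other than the 6 members, so the clusters could not be built on them. The OPC-like cluster, named from the same 11 markers, held 72 dorDG cells (71 of them named OPC by the authors) and 167 venDG cells. In venDG it held 9.64% of all UMIs but 76.8% of the Pdgfra, 74.3% of the C1ql1, 65.1% of the Vcan, 55.0% of the Ptprz1 and 39.4% of the Cspg4 UMIs. Levels there (n = 9 replicates) were 5.61 ± 1.08 for Pdgfra, 22.7 ± 4.05 for Ptprz1, 3.90 ± 0.577 for Vcan, 2.46 ± 0.803 for Cspg4, 2.01 ± 0.573 for C1ql1 and 0.0425 ± 0.0688 for Gpr17. Astrocyte-like cells of venDG held Ptprz1 at 11.1 ± 3.23 and Pdgfra at 0.102 ± 0.180, and Oligodendrocyte-like cells held them at 0.384 ± 0.244 and 0.0873 ± 0.0667. The order OPC, astrocyte, oligodendrocyte for Ptprz1 was thus the same in both regions.

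Another 47 cells in a cluster led by fibroblast genes and 124 cells in a cluster led by neuronal genes also met the count of OPC markers and were left unnamed, a choice made after the clusters were seen. The fibroblast-led cluster held 0.702% of dorDG FT, 1.81% of dorDG Sham, 1.20% of venDG FT and 1.85% of venDG Sham cells. The neuron-led cluster held 2.28%, 7.51%, 2.80% and 2.72%, in the same order. Of the 87 cells named OPC by the authors, 11 fell in the former (3 of dorDG FT and 8 of dorDG Sham) and 1 in the latter (dorDG FT).

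Several members were counted in most single OPC cells. Of 87 OPC cells, 81 (93.1%) held UMIs of at least 2 members and 79.3% of at least 3, with a median of 4 members, and 23 cells held 5. In AstroSub1, 75 of 110 cells held exactly 1 member and 18.2% held at least 2, while the share with at least 2 was 5.85% in Oligodend1 and 11.6% in Oligodend2. Thinned to 1000 UMIs a cell, 57.6% of OPC and 8.16% of AstroSub1 cells held at least 2 members, against 1.39% of Oligodend1 and 0% of Oligodend2 cells. Overlap with AstroSub1 came mainly from Ptprz1, which was found in 90 of its 110 cells, beside 13 cells with Vcan, 8 with Pdgfra, 3 with Cspg4, 2 with C1ql1 and 1 with Gpr17. No OPC cell held all 6 members.

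Within OPC cells, pairs of members met about as often as their separate shares give. Pdgfra and Cspg4, the classic pair that defines OPC, were counted together in 41 of 87 cells (47.1%) where independent detection would give 43.8%. Pdgfra and Vcan met in 55 cells (63.2% against 59.2%), and Pdgfra and C1ql1 in 39 (44.8% against 40.1%). Depth per cell was not held fixed in these counts. Both cells with Gpr17, the marker of committed precursors, also held Pdgfra, Vcan, C1ql1 and Ptprz1 UMIs, and neither held Cspg4.

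**Figure D2:**
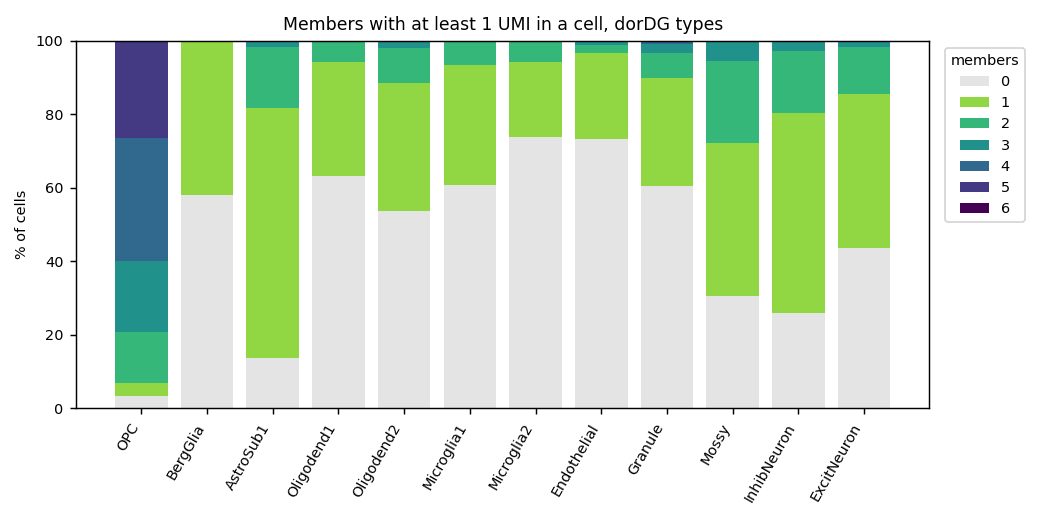
Share of cells (y axis, %) of each dorDG type with UMIs of 0 to 6 of the 6 members, stacked from 0 at the base. In OPC 93.1% of cells hold 2 or more members, in AstroSub1 most cells hold exactly 1, and in the oligodendrocyte and microglial types most hold 0.

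Over the 12 dorDG types, the members' patterns were compared by Pearson's r of log2(UMIs per 10000 + 0.1), a description over 12 points that share libraries and depth. Pdgfra and C1ql1 were closest (r = 0.955), followed by Pdgfra and Vcan (0.883), and Cspg4 and Ptprz1 were farthest apart (0.212). Among all genes that reach 0.5 UMIs per 10000 in some type, those most like Pdgfra were Sfrp2 (0.969), C1ql1 and Nxph1 (0.945). For C1ql1 they were Nxph1 (0.957), Traf4 (0.956) and Pdgfra, and for Vcan they were Tmtc2 (0.951), Car8 (0.903) and Pdgfra. For Ptprz1 they were B3gat2 (0.951), Cspg5 (0.948), another chondroitin sulfate proteoglycan that was higher in AstroSub1 (6.94) than in OPC (6.09 UMIs per 10000), and Hdac2 (0.939). For Cspg4 they were Ccnd1 (0.834), Apaf1 (0.826) and Spry1 (0.822). For Gpr17, with its few UMIs, they were Crebbp (0.869), Fam110b (0.844) and Eps8 (0.825).

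OPC cells split by their share of ribosomal UMIs differed in some members more than in others. In the 24 dorDG OPC cells under 2% (median 2336 UMIs) the pooled Pdgfra level was 2.17 and 41.7% of cells had a UMI, against 5.67 and 93.7% in the 63 cells at or above 2% (median 6712 UMIs). C1ql1 was 0.678 against 1.82 and Ptprz1 13.6 against 21.1, whereas Vcan was 4.07 against 3.50 and Cspg4 2.71 against 1.84. In the OPC-like cells of venDG, Pdgfra was 7.04 in the 18 cells under 2% and 5.43 in the 149 at or above it. Ptprz1 there was 40.1 against 21.6, while C1ql1 was 1.23 against 2.12. The contrast within dorDG itself moved with the cells counted, since in its OPC-like cells (8 under 2% and 64 at or above it) Ptprz1 was 23.7 against 20.8, Pdgfra 4.23 against 5.58 and C1ql1 0.423 against 1.79. These are pooled cells with no replicate test.

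Within OPC cells no member was called between FT and Sham. The tests summed counts per replicate and used edgeR's quasi-likelihood test on all genes with at least 0.5 UMIs per 10000, and following the study a gene counted as called if its p after Benjamini-Hochberg adjustment did not exceed 0.2 and its change reached 0.322 on the log2 scale. In dorDG OPC, 0 of the 5 members tested were called, where 0% of all 4450 genes were called (0 also by DESeq2 and by limma, with 211 genes at an unadjusted p under 0.05 by edgeR). Gpr17 did not pass the filter on low values.

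Pdgfra levels in dorDG OPC were 4.19, 3.17, 7.23 and 5.05 in FT replicates 1, 2, 4 and 5, and 5.68, 1.16 and 7.31 in Sham replicates 1, 2 and 5. The lowest and the highest of the 7 values were both Sham, and the log2 fold change (FT over Sham) was 0.04 ± 0.42 (SE; edgeR adjusted p = 0.991). Of the 8 OPC cells of Sham replicate 2, the lowest, 7 had under 2% ribosomal UMIs. Ptprz1 levels were 16.0, 19.1, 19.5 and 24.2 in FT and 16.8, 18.1 and 32.2 in Sham, with the FT values inside the Sham range but for the lowest, and a log2 fold change of -0.10 ± 0.32 (edgeR adjusted p = 0.986).

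The proteoglycans overlapped as well. Vcan was 4.93, 2.75, 4.57 and 2.53 in FT and 3.16, 1.93 and 4.98 in Sham (0.20 ± 0.41 on the log2 scale, edgeR adjusted p = 0.970). Cspg4 was 2.59, 1.80, 3.05 and 0.421 in FT and 1.68, 1.54 and 2.33 in Sham (0.22 ± 0.49, edgeR adjusted p = 0.974), the FT replicates spanning the Sham ones on both sides. C1ql1 had the largest fold change of the 5, with 2.097, 0.950, 2.41 and 2.11 in FT and 1.49, 0.386 and 1.66 in Sham, a log2 fold change of 0.55 ± 0.50 that did not pass the test (edgeR adjusted p = 0.936). With 4 against 3 replicates and SEs of 0.32 to 0.50 on the log2 scale, modest changes were not detectable at this depth.

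In venDG OPC-like cells 0 of 5 members were called, where 0% of 4347 genes were called (0 also by DESeq2 and limma, with 186 genes at an unadjusted p under 0.05 by edgeR). Vcan alone had replicates that did not overlap. Its levels were 4.19, 4.27, 4.62, 3.80 and 4.71 in FT and 3.07, 3.59, 3.54 and 3.31 in Sham replicates 1 to 4, a mean of 4.32 ± 0.364 against 3.38 ± 0.239. The log2 fold change was 0.37 ± 0.23 (unadjusted p = 0.126, edgeR adjusted p = 0.996), so this separation did not pass the test across all genes. How many of all genes part in this way was not counted. Pdgfra was 5.67, 5.69, 3.61, 6.79 and 6.52 in FT and 5.48, 5.13, 4.60 and 6.96 in Sham, a log2 fold change of -0.02 ± 0.24. Ptprz1 (0.11 ± 0.20), Cspg4 (0.24 ± 0.32) and C1ql1 (0.12 ± 0.32) had adjusted p-values of 0.996 to 0.9998 by edgeR.

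**Figure D3:**
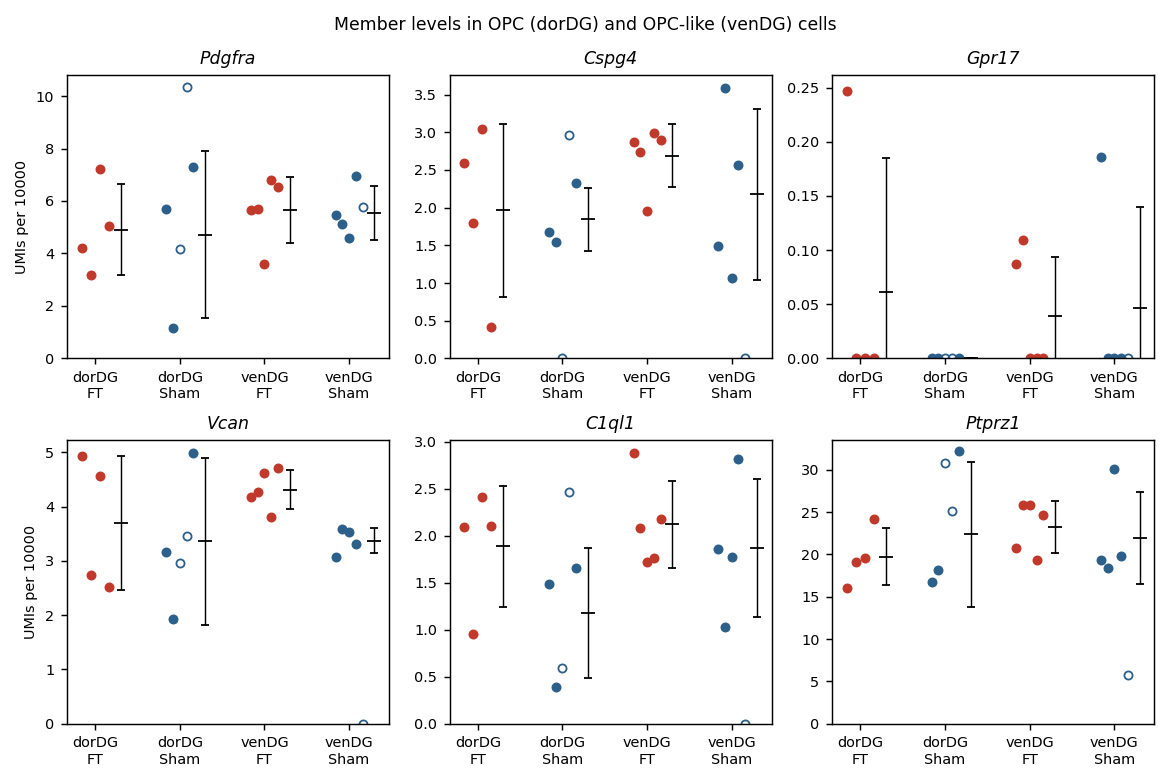
Level of each member (UMIs per 10000) per replicate in OPC cells of dorDG and OPC-like cells of venDG, FT in red and Sham in blue, with the mean ± 1 SD of the replicates with at least 5 cells beside the points, and open points for replicates with fewer cells. FT and Sham points overlap in each panel except Vcan in venDG, where FT lies between 3.80 and 4.71 and filled Sham points between 3.07 and 3.59. Vcan was not called there, and how many of all genes part in this way was not counted.

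Summed over all cells of a replicate, a member's level moves with the number of OPC and with the RNA per cell of every type, and fewer OPC and less member RNA per OPC cannot be told apart in such sums alone. In dorDG, Pdgfra was called higher in FT. It was 0.631, 0.429, 1.06 and 0.548 UMIs per 10000 in FT replicates 1, 2, 4 and 5 and 0.678, 0.173, 0.265, 0.411 and 0.518 in Sham replicates 1 to 5. The groups overlapped, since Sham replicate 1 lay above 3 of the 4 FT replicates, and the log2 fold change was 0.75 ± 0.36 (edgeR adjusted p = 0.197). This was 1 of the 2 members that passed the filter, in a comparison where 28.6% of 4274 genes were called (532 higher, 689 lower). DESeq2 called it too (0.78, adjusted p = 0.117). It was not called without the filter (0.81, adjusted p = 0.318), by limma (0.76, adjusted p = 0.202) or with the replicate number as a block (0.67, adjusted p = 0.247), and in cells with at least 2% ribosomal UMIs the change was 0.29 (adjusted p = 0.9996). Of the fits that left out 1 replicate, only that without FT replicate 2 kept the call, with adjusted p-values from 0.184 to 0.355, and without FT replicate 4 Pdgfra failed the filter.

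Ptprz1, the other member tested, was 3.32, 3.39, 3.48 and 3.22 in FT and 3.58, 1.69, 2.94, 1.97 and 3.57 in Sham. Its FT values lay close together inside the Sham range, and the log2 fold change of 0.38 ± 0.25 was not called (edgeR adjusted p = 0.296). Cspg4, below the filter, was the 1 member whose replicates did not overlap, at 0.604, 0.486, 0.773 and 0.394 in FT and 0.362, 0.380, 0.0408, 0.329 and 0.241 in Sham. The gap was narrow (0.380 to 0.394), and how many of all genes part in this way was not counted. The Cspg4 mean was 0.564 ± 0.164 against 0.270 ± 0.139, and in a fit without the filter its log2 fold change was 1.13 ± 0.35 (edgeR adjusted p = 0.232). In that fit C1ql1 (1.12 ± 0.39) and Vcan (0.78 ± 0.33) had adjusted p-values of 0.253 and 0.329, and Gpr17 (1.23 ± 1.008) one of 0.556, so none was called. C1ql1 ranged from 0.158 to 0.336 in FT and from 0.0518 to 0.163 in Sham, and Vcan from 0.394 to 0.739 and from 0.184 to 0.615.

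The cells that carried these sums differed between members. Outside the cells named OPC, Pdgfra was at 0.141 ± 0.0420 in dorDG FT and 0.116 ± 0.0279 in dorDG Sham, and C1ql1 at 0.0282 ± 0.0265 and 0.0423 ± 0.0269. Cspg4 outside OPC was 0.362, 0.329, 0.426 and 0.392 in FT and 0.220, 0.326, 0.0422, 0.238 and 0.118 in Sham. These groups still did not overlap, but the gap was narrow (0.326 to 0.329), and how many of all genes part in this way was not counted. Mossy cells, the other carriers of Cspg4, made up 8.64% ± 0.676 of the cells in dorDG FT and 2.87% ± 2.41 in dorDG Sham, and mural markers summed to 3.15 to 7.11 in FT and 0.713 to 4.60 in Sham. Within Mossy cells the Cspg4 level averaged 1.37 ± 0.408 over 4 FT and 1.65 ± 0.716 over 3 Sham replicates. The part of these cells in the Cspg4 difference was not tested.

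In venDG all-cell sums, 0 of 4 members were called, where 0% of 4079 genes were called (0 by limma and 22 by DESeq2, with 236 genes at an unadjusted p under 0.05 by edgeR). Pdgfra was 0.8291, 0.478, 0.453, 0.763 and 0.670 in FT and 0.854, 0.679, 1.23, 1.05 and 0.179 in Sham. Sham replicate 5, with 2 OPC-like cells among 59, was the lowest of all, and the log2 fold change was -0.36 ± 0.32 (edgeR adjusted p = 0.813). Vcan (0.27 ± 0.31), Ptprz1 (0.10 ± 0.27) and Cspg4 (0.03 ± 0.20) had adjusted p-values of 0.863 to 0.984 by edgeR.

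**Figure D4:**
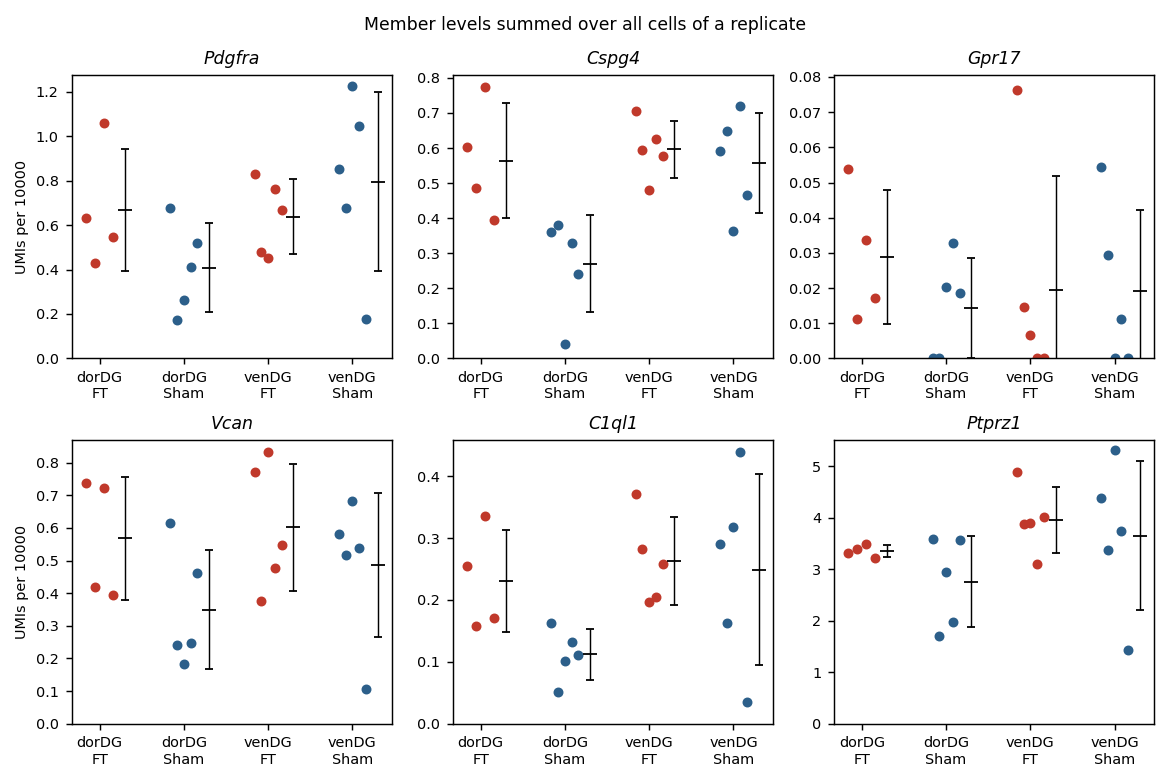
Level of each member (UMIs per 10000) summed over all cells of each replicate, FT in red and Sham in blue, with the mean ± 1 SD beside the points. In dorDG the Cspg4 points of FT (0.394 to 0.773) lie above those of Sham (0.0408 to 0.380), while in venDG both treatments overlap for each member. How many of all genes part as Cspg4 does in dorDG was not counted.

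The share of cells that were OPC was compared per replicate with two-sided exact permutation tests. Cells named OPC were 9.79%, 6.60%, 10.7% and 7.07% of dorDG FT replicates 1, 2, 4 and 5, and 8.70%, 5.80%, 2.00%, 2.96% and 4.31% of dorDG Sham replicates 1 to 5. The means were 8.54% ± 2.01 and 4.75% ± 2.63, and Sham replicate 1 lay above the lower FT replicates (exact p = 0.0635, adjusted over 3 share tests 0.0952). OPC-like cells, named the same way in both regions, averaged 7.87% ± 1.66 in dorDG FT and 3.56% ± 1.74 in dorDG Sham, a difference of 4.31 percentage points with exact p = 0.0159, the smallest that 4 against 5 replicates allow (adjusted 0.0476). The groups were parted by a narrow gap, with 6.091% in FT replicate 2 and 6.087% in Sham replicate 1. In dorDG Sham replicate 2, 8 cells were named OPC but 2 were OPC-like, and the fibroblast-led cluster left unnamed took more named OPC from dorDG Sham (8) than from dorDG FT (3).

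That dorsal difference moved with the cells counted. Among cells with at least 2% ribosomal UMIs it was 1.53 points (exact p = 0.571), and with the 2 unnamed clusters of OPC markers counted in, it turned to -2.06 points (exact p = 0.444). With only the fibroblast-led cluster counted in, it was 3.44 points (exact p = 0.0476). With each region clustered alone it was 4.355 points (exact p = 0.0476). The 9 OPC markers in the tables, summed over all dorDG cells, ran from 4.88 to 7.92 UMIs per 10000 in FT and from 6.00 to 11.7 in Sham, not higher in FT. The same markers summed to 10.6 in InhibNeuron, 9.76 in ExcitNeuron and 9.52 in Granule cells. The part of each type in the all-cell sum was not tested. In venDG, OPC-like cells were 7.93%, 3.91%, 11.7%, 8.52% and 8.40% of FT and 8.76%, 5.68%, 11.9%, 11.4% and 3.39% of Sham replicates 1 to 5, which overlapped throughout (8.09% ± 2.77 against 8.24% ± 3.68, exact p = 0.905).

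**Figure D5:**
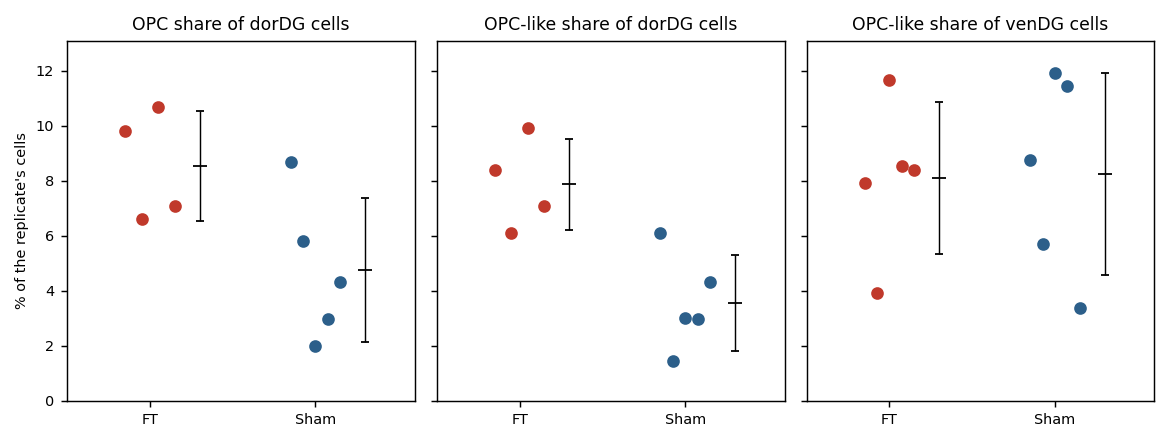
Share of each replicate's cells (y axis, %, from 0) named OPC by the authors in dorDG, and in the OPC-like cluster in dorDG and in venDG, FT in red and Sham in blue, with the mean ± 1 SD beside the points. In dorDG the FT means are 8.54% and 7.87% and the Sham means 4.75% and 3.56%, and in venDG the treatments overlap.

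In AstroSub1, Oligodend1 and Oligodend2, no member was called between FT and Sham. Mossy cells, whose Cspg4 replicates overlapped those of OPC, were not tested for treatment. In AstroSub1, 0 of 2 members tested were called, where 0.0232% of 4304 genes were called. Ptprz1 there was 7.58, 11.99, 9.19 and 7.16 in FT and 10.7, 4.75, 9.90 and 13.3 in Sham replicates 1, 2, 4 and 5, with overlapping groups (-0.05 ± 0.40 on the log2 scale, edgeR adjusted p = 0.987), and Vcan changed by -0.44 ± 0.78 (adjusted p = 0.944). In Oligodend1, where 6.15% of 3693 genes were called, Ptprz1 was the 1 member tested and was 0.472 ± 0.355 in FT and 0.857 ± 0.418 in Sham (-0.73 ± 0.54, edgeR adjusted p = 0.510). In Oligodend2, where 0.029% of 3447 genes were called, it was 0.590 ± 0.0570 in FT and 0.798 ± 0.448 in Sham (-0.39 ± 0.56, edgeR adjusted p = 0.999). The other members were below the filter in both oligodendrocyte types.

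Regions were compared in 1 fit over the 4 groups. Both regions were punched from the brains of the same treatment groups, so dorDG and venDG samples of 1 number may share animals, which this fit does not use, and counts with the replicate number as a block are given beside it. Over all cells of Sham animals, Pdgfra was lower in dorDG (0.409 ± 0.201) than in venDG (0.797 ± 0.402), but with overlapping replicates and a log2 difference of -1.002 ± 0.36 (edgeR adjusted p = 0.306) it was not called, and 0 of 2 members were, where 1.83% of 4161 genes were called. With the replicate number as a block, which takes same-numbered samples of both regions as pairs, Pdgfra was called (-0.98, edgeR adjusted p = 0.177), where 12.1% of 4161 genes were called. Ptprz1 differed by -0.49 ± 0.26 (adjusted p = 0.491). In FT animals 0 of 2 members were called, where 0% of 4161 genes were called (0 by limma and 2 by DESeq2, 163 at an unadjusted p under 0.05 by edgeR). With the block 0 of 2 members were called there, where 0.0481% of genes were called. Pdgfra was 0.667 ± 0.274 in dorDG and 0.638 ± 0.168 in venDG. The treatment effects of both regions, which share these samples with the comparisons above, differed for Pdgfra by 1.07 ± 0.51 on the log2 scale (edgeR adjusted p = 0.522), and for the interaction 0 of 2 members were called, where 0% of 4161 genes were called (0 by limma, 8 by DESeq2, 394 at an unadjusted p under 0.05). With the block 0 of 2 members were called for the interaction, where 10.3% of 4161 genes were called, and Pdgfra differed by 0.91 (edgeR adjusted p = 0.344).

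Cspg4 failed the filter in this fit, and without the filter its Sham difference was -1.12 ± 0.32 (edgeR adjusted p = 0.212), beside C1ql1 at -1.29 ± 0.39 (0.255). Where leaving out 1 replicate let Cspg4 pass the filter it was called in Sham without dorDG Sham replicate 2 (-1.25), dorDG Sham replicate 4 (-1.12) or venDG Sham replicate 3 (-1.17), and in the interaction without dorDG Sham replicate 2 (1.17). These calls could arise only in fits that lifted Cspg4 over the filter. The count of all genes called also moved with the replicate left out. No share of all genes is set beside these calls, so they are not read as a result about Cspg4. The all-cell levels of Cspg4 were 0.270 ± 0.139 in dorDG Sham, 0.558 ± 0.143 in venDG Sham, 0.564 ± 0.164 in dorDG FT and 0.597 ± 0.0819 in venDG FT, so dorDG Sham stood apart from the other groups in its mean, with its highest replicate (0.380) inside the range of venDG Sham (0.363 to 0.720).

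Within OPC-like cells no member was called between the regions. The Sham comparison (0 of 5 members called, where 0% of 4328 genes were called, 0 by DESeq2, 2 by limma, 168 at an unadjusted p under 0.05) rests on 2 dorDG replicates, since only Sham replicates 1 and 5 held at least 5 OPC-like cells. Differences between dorDG and venDG there ran from -0.33 ± 0.48 for C1ql1 to 0.28 ± 0.32 for Pdgfra on the log2 scale (edgeR adjusted p = 0.995 for each of the 5). With the block 0 of 5 were called, where 1.09% of 4328 genes were called. In FT animals 0 of 5 members were called, where 0.0231% of 4328 genes were called, with differences from -0.40 ± 0.35 for Cspg4 to -0.08 ± 0.33 for C1ql1 (edgeR adjusted p = 0.992 to 0.994), and with the block 0 of 5 were called, where 0.323% of genes were called. The interaction called 0 of 5, where 0% of 4328 genes were called (0 by DESeq2 and limma, 158 at an unadjusted p under 0.05 by edgeR), and 0 of 5 with the block, where 0.116% of genes were called.

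Other genes of the lineage were read from 5 lists. Among 18 other precursor genes in the tables, 11 were tested in the dorDG all-cell sums, and Bcan, a brain proteoglycan of the lectican family (0.85 ± 0.28 on the log2 scale), and Sulf2, an extracellular sulfatase (0.61 ± 0.22), rose in FT while Opcml, a cell adhesion gene also of neurons, fell by 0.94 (SE 0.34). Of the committed precursor and newly formed oligodendrocyte genes 2 of 9 tested rose, Tns3 (0.70) and Parvb (0.70), and of the matrix genes 1 of 6, again Bcan. The adjusted p-values of these 5 genes ran from 0.162 to 0.168 by edgeR. Of the lineage transcription factors 0 of 4 and of the members' ligands and partners 0 of 4 were called. The medians of the 5 lists were 0.34 for transcription factors, 0.22 for committed precursor genes, 0.04 for partners, -0.04 for other precursor genes and -0.05 for matrix genes, beside -0.04 over all 4274 genes tested. These shares stand in a comparison that called 28.6% of all genes, and that called 0 genes with the replicate block or in cells with at least 2% ribosomal UMIs.

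Within dorDG OPC none of the lists held a called gene. The smallest unadjusted p belonged to Sirt2, a deacetylase of myelinating cells (1.27 ± 0.58, p = 0.0351, edgeR adjusted p = 0.936), and the next to Sulf2 (0.75 ± 0.42) and Pcdh15 (-0.60 ± 0.35). In venDG OPC-like cells, and in the venDG all-cell sums, again 0 listed genes were called. In Oligodend1, Cntn1, a contactin that binds Ptprz1, fell by 2.75 (SE 0.78, edgeR adjusted p = 0.119), the 1 call among 4 partners tested, where 6.15% of 3693 genes were called (8 genes by limma and 0 in ribosome-rich cells). Between the regions in Sham, Sulf2 was lower in dorDG (-0.63 ± 0.19, edgeR adjusted p = 0.194), the 1 call among 12 other precursor genes tested, where 1.83% of 4161 genes were called (12.1% with the replicate block).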

How the data were processed

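Deposited files hold UMI counts per gene and cell for dorDG and venDG. Per the labels and the submitters' processing notes, the authors made these counts with Cell Ranger 2.1.0 from 10x Chromium 3' version 2 libraries, with rn5 as genome build, and analysed them with Seurat 3. Of 3517 cell columns, 170 venDG columns carried a suffix that matched no label and were left out, 167 of them repeats of a barcode of the same reaction. No doublet caller was run here. Doublet removal is not given in the sources used here. Cells took their group and replicate from the labels and, in dorDG, their type from the authors' annotation.

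For each replicate, counts were added up over the cells of a type (5 cells or more). edgeR 4.0.16 (R 4.3.3) tested genes whose mean reached 0.5 UMIs per 10000, with TMM scaling and calls at an adjusted p up to 0.2 and a log2 change from 0.322. These filters and thresholds follow the study, whose t-test was replaced by a count test. Alternatives were DESeq2 1.42.0, limma 3.58.1 on log2(UMIs per 10000 + 0.01), no filter, the replicate number as a block, cells with at least 2% ribosomal UMIs, replicates with at least 1 cell, and each replicate left out. Where dorDG Sham OPC-like sums left 2 replicates, fewer than the 3 planned, the fit over 4 groups was kept. The tests were tried on simulated data.

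Both regions were clustered together with scanpy 1.11.5 (2000 variable genes without the 6 members, 30 components, 15 neighbours, Leiden resolution 2). Clusters were named where at least 3 markers of a type were 2-fold higher and found in 10% of cells. A further rule, that an OPC-like cluster needs an OPC marker among its 10 leading genes, was added after the clusters were seen. Shares were tested with exact permutation tests (scipy 1.17.1). Members are reported in each comparison, the 3 genes of nearest pattern by r, and of each list at most 4 called genes or those of smallest p. The members and lists were chosen with earlier results of these data known.

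Deviations of same-numbered dorDG Sham and venDG Sham samples from their group means correlated at 0.198 to 0.561 over 5 pairs. The labels do not name such pairs, and the numbers were taken as pairs only in the blocked fits. No pair of replicates agreed within sampling noise (chi-square per degree of freedom at least 3.31). Replicates are pools of 3 animals by the study's methods, and both regions were punched from these brains, so a dorDG and a venDG sample may share animals, and the labels do not say which. P-values measure the spread between these samples.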

Additional observations from a re-analysis of the deposited data

Results flagged for a closer look

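Of 68 groups of 4 to 10 replicate values checked, 9 held a replicate that lay far from the others. Chance gives about 1 group in 20 where values vary freely. That rate does not hold where all other replicates are at 0, since any count then stands out. Such were the C1ql1, Cspg4 and Pdgfra values in AstroSub1 and Oligodend1 below. Most of the 9 were low counts in these types. C1ql1 in AstroSub1 was 0.620 UMIs per 10000 in dorDG FT replicate 2 and 0.148 in dorDG Sham replicate 1, with the other replicates of each group at 0. In the same dorDG Sham replicate 1, Cspg4 in AstroSub1 was 0.148 and Pdgfra 0.741. Pdgfra in Oligodend1 was 0.288 in dorDG FT replicate 5, and Vcan in Oligodend1 was 0.551 in dorDG Sham replicate 2.

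In venDG OPC-like cells, Cspg4 was lowest in FT replicate 3 (1.95) and Ptprz1 highest in Sham replicate 3 (30.1), a replicate with 5 OPC-like cells. Over all venDG cells, Vcan was lowest in Sham replicate 5 (0.108), which held 2 OPC-like cells among 59.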

How the results depend on the processing

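Of 759 alternative log2 fold changes of the members, 695 kept direction and side of the threshold, 11 lost a call, 2 gained one and 51 changed sign, the last over 21 of 41 results, whose reported change was at most 0.44 in size. The cause of these changes was not tested. Depth limits Gpr17, with 32 UMIs in all, and the number of cells limits the OPC-like comparisons of dorDG Sham, where 2 replicates held at least 5 such cells. Per-type sums of few cells leave standard errors that hide small changes.

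Calls moved in 2 comparisons over all cells. For FT against Sham in dorDG, members called fell from 1 to 0 without the filter, by limma, with the replicate block and in cells with at least 2% ribosomal UMIs, and Pdgfra there was 0.81, 0.76, 0.67 and 0.29. Genes called went from 1221 to 207, 1295, 0 and 0, and to 1849 by DESeq2. They were 0 without FT replicate 4 or 5 or Sham replicate 3 or 5, 1 without Sham replicate 1 and 479 without FT replicate 1. Leaving out Sham replicate 2 raised them to 2022. For dorDG against venDG in Sham, members called rose from 0 to 1 by DESeq2 (Pdgfra -1.03, 209 genes called in place of 76) and with the block (-0.98, 503 genes). Other counts for that comparison were 90 without the filter, 20 by limma, 0 in ribosome-rich cells and 0 to 481 with 1 replicate left out. In Oligodend1, 227 genes called became 195 by DESeq2, 41 without the filter, 8 by limma, 259 with the block, 0 in ribosome-rich cells and 0 to 572 with 1 replicate left out. The block raised the all-cell interaction from 0 to 428 genes and the OPC-like region comparisons from 0 to 47 in Sham and from 1 to 14 in FT.

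The dorsal OPC-like share differed by 4.17 points with the block (exact p = 0.125, the smallest possible), by 1.53 in ribosome-rich cells and by -2.06 with both unnamed clusters counted, an alternative chosen after seeing the data. Cspg4 in Mossy cells thinned to 1000 UMIs was 2.21 UMIs per 10000.

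Signs turned as follows in dorDG OPC. In ribosome-rich cells Vcan was -0.031, Cspg4 -0.079 and Pdgfra -0.36, without the filter Ptprz1 was 0.092, by limma Cspg4 was -0.21, with the block it was -0.10, and with replicates of 1 cell or more Pdgfra was -0.11. In venDG all cells Cspg4 was -0.00155 by DESeq2 and -0.18 in ribosome-rich cells. In venDG OPC-like cells Cspg4 was -0.10 in ribosome-rich cells, and Pdgfra was 0.070 without the filter, 0.013 by limma and 0.15 with replicates of 1 cell or more. In AstroSub1 Vcan was 0.37 by limma and 0.16 with the block, and Ptprz1 was 0.13 with replicates of 1 cell or more. Between regions over all FT cells Pdgfra was -0.076 with the block and -0.024 in ribosome-rich cells, and the all-cell interaction of Ptprz1 was -0.074 in ribosome-rich cells. Between OPC-like cells of Sham, Vcan was -0.091 with replicates of 1 cell or more, Ptprz1 was -0.048 with the block, and Cspg4 was 0.073 by limma and 0.30 with the block.

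With each replicate left out in turn, members called ran from 0 to 1 for FT against Sham in dorDG all cells, for the Sham regions over all cells and for the all-cell interaction. In dorDG OPC the range was -0.0042 to 0.44 for Vcan, -0.22 to 0.19 for Ptprz1, -0.036 to 0.49 for Cspg4 and -0.34 to 0.31 for Pdgfra. In venDG all cells it was -0.097 to 0.27 for Ptprz1 and -0.052 to 0.12 for Cspg4, and in venDG OPC-like cells -0.097 to 0.10 for Pdgfra and -0.062 to 0.43 for C1ql1. In AstroSub1 it was -0.91 to 0.023 for Vcan and -0.29 to 0.14 for Ptprz1, and in Oligodend2 -0.85 to 0.21 for Ptprz1. Between regions it was -0.26 to 0.25 for Pdgfra over all FT cells. Between OPC-like cells of Sham it was -0.061 to 0.47 for Vcan, -0.16 to 0.48 for Ptprz1 and -0.35 to 0.12 for Cspg4, and between those of FT -0.32 to 0.090 for Pdgfra and -0.22 to 0.18 for C1ql1. In the OPC-like interaction it was -0.50 to 0.058 for Cspg4 and -0.025 to 0.52 for C1ql1. The difference in OPC share ran from 3.07 to 4.77 points, the latter without dorDG Sham replicate 1 (exact p = 0.0286), and that in venDG OPC-like share from -1.36 to 0.893.

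The study handled Sham and FT samples of a replicate side by side, by a methods section on the frozen brains of its bulk assays. For the single-cell replicates no source used here states this. Their reaction numbers run by replicate number with both treatments in each run, so a shared batch is possible and was not tested. Correlations of the deviations of same-numbered FT and Sham samples ran from -0.224 to 0.362 in dorDG and from -0.164 to 0.265 in venDG. For dorDG FT and venDG FT they ran from 0.0963 to 0.353. The block changed no other call of a member.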
